A study of Mus musculus with 3 samples.

Results

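Aquaporins are the membrane channels through which water crosses cells. The family is named for water, but its aquaglyceroporin branch (Aqp3, Aqp7 and Aqp9) also carries glycerol, and Aqp8 is known to pass hydrogen peroxide and ammonia as well. In the large intestine, water follows absorbed salt across the surface epithelium, and Aqp8, Aqp4 and Aqp3 are the channels most often described there in rodents.

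The 10 aquaporin genes reported here were chosen by name: Aqp1, Aqp2, Aqp3, Aqp4, Aqp5, Aqp6, Aqp7, Aqp8, Aqp9 and Aqp11. They account for 10 of the 24346 gene symbols in the files and for 20 of the 34535 isoforms. The samples are distal colon of wild-type mice aged 8 weeks, kept at steady state, with JAX given as the strain. All 3 samples of polyadenylated RNA carry those same labels and form 1 group, so no contrast between conditions exists. The question that the data can answer is which aquaporins this tissue transcribes, at what level and in which isoforms.

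The files give FPKM, which scales fragments to transcript length and to library depth, so genes can be compared per length. Read back from the confidence bounds, replicates 1, 2 and 3 held 3.78e+06, 3.79e+06 and 1.24e+06 mapped fragments. The names of the 3 files carry the same index and lane and differ in a running number, and nothing in the labels says that the replicates came from separate animals. Whether the 3 files come from separate libraries or hold parts of the reads of 1 library was not tested. Of 8771 single-isoform genes averaging 1 FPKM or more, 5 (0.057%) differed between the files by a chi-square test with Benjamini-Hochberg adjustment, and 432 had an unadjusted p under 0.05. The median chi-square per degree of freedom was 0.676, where sampling alone gives a median of the natural logarithm of 2. The files thus differed by about the sampling noise and were counted as 1 sample, and each SD over the 3 files is a measurement error with no estimate of the spread between animals. The tissue label was checked against markers of surface colonocytes: all 7 reached 1 FPKM in each file, among them the carbonic anhydrase Car4 at 817 ± 13.5 FPKM. Hepatocyte genes, which colon is not known for, also reached that level, 7 of 7 of them. Of 6 small intestine genes, 3 did so, near the 48.5% of all symbols. Fabp6, the ileal bile acid binding protein, was highest at 95.6 FPKM, while Sis, Alpi and Lct averaged 0.911, 0.285 and 0.0440 FPKM. All 6 goblet, 5 crypt base, 4 enteric neuron, 4 smooth muscle and 5 macrophage genes reached 1 FPKM in each file, against 3 of 4 lymphatic genes. The 3 testis genes were listed at 0. The level that 3 fragments over the 3 files would give was 1.44 FPKM for Prm1, 0.760 for Prm2 and 1.30 for Tnp1. For Prm1 and Tnp1 a listed 0 thus does not place the gene under 1 FPKM.

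The family fell into 3 tiers. Aqp8 stood alone at the top, Aqp4, Aqp1 and Aqp11 formed a middle tier between 7.99 and 20.1 FPKM in single files, and the other 6 genes stayed under 1 FPKM in every file. Of the 10 genes, 4 reached 1 FPKM in each file and 3 were listed at 0 throughout. Over all symbols, 48.5% reached 1 FPKM in each file and 29.9% were listed at 0 throughout, so the family's shares were near the background. The median of the family's mean levels was 0.295 FPKM, against 1.25 FPKM over all symbols.

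**Figure D1:**
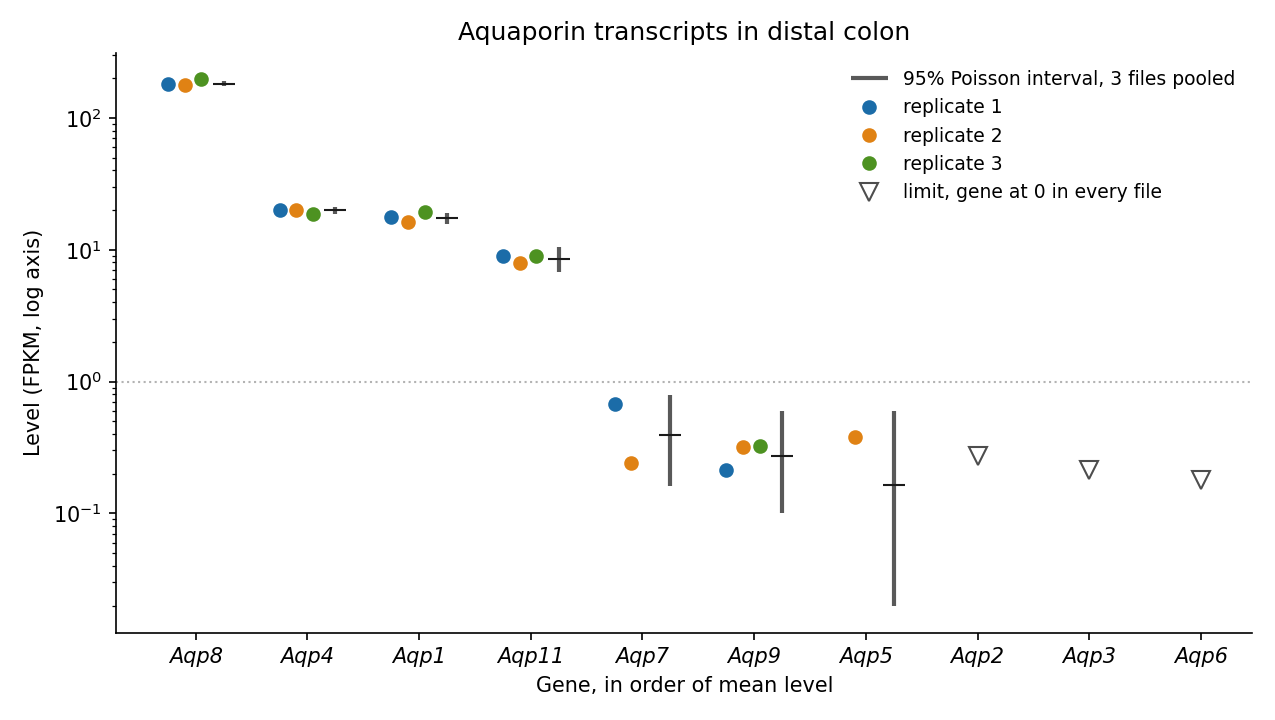
Level of each aquaporin gene in FPKM on a log axis, with 1 point per replicate, a grey bar for the exact 95% Poisson interval around the level pooled over the 3 files, and an open triangle for the limit of a gene at 0 in every file. Points at 0 are not drawn. Aqp8 lies between 177 and 196 FPKM, Aqp4 and Aqp1 overlap, and the dotted line marks 1 FPKM.

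Aqp8, the channel of the apical side of colonocytes, had 181, 177 and 196 FPKM in replicates 1, 2 and 3, and averaged 184 ± 10.2 FPKM (SD over 3 files). The gene lies on chromosome 7, 123462294 to 123468003 (GRCm38). It rested on about 2106 fragments over the 3 files, which gave an exact 95% Poisson interval of 173 to 189 FPKM around the pooled level. In the chi-square test between files over genes of all isoform numbers, where 0.158% of genes were called, its Benjamini-Hochberg adjusted p was 0.979. Aqp8 ranked 329th among all symbols, above 98.6% of them. It made up 79.8% of the summed FPKM of the 10 genes, and its share was between 79.1% and 80.6% in single files. It was 9.40 times the next gene by mean, and between 8.77 and 10.5 times in single files.

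Aqp8 had 2 listed isoforms, which share their outer ends and 6 exons and differ only in where exon 2 begins. Exon 1 ends at base 123462458. Exon 2 begins at 123462571 in NM_007474 and at 123462574 in NM_001109045, so NM_007474 carries 3 bases more, or 1 codon, and the reading frame is kept. The 12 coding bases of exon 1 and the start of exon 2 are shown 5′ to 3′ on the plus strand, spliced, with the 3 bases that set the isoforms apart in capitals, as they stand in the GENCODE M21 transcripts of GRCm38.
NM_007474: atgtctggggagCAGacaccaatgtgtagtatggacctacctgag
NM_001109045: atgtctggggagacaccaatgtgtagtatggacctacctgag

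The shorter form, NM_001109045, was the more abundant in every file, at 143, 138 and 114 FPKM in replicates 1, 2 and 3. The longer form, NM_007474, stood at 38.0, 38.6 and 82.0 FPKM. Replicate 3, the shallowest file, thus had the lowest value of the shorter form and the highest of the longer one. No difference between files was detected in the gene sum, as given above. The longer form took 21.1%, 21.8% and 41.8% of the gene in replicates 1, 2 and 3, on average 28.2% ± 11.8 (SD), and 21.4% without replicate 3. Its deposited 95% bounds in replicate 3, 63.9 to 100.2 FPKM, did not overlap those of replicate 1 (30.5 to 45.6 FPKM) or replicate 2 (31.0 to 46.2 FPKM). Such a gap was common in the files: among 895 genes with 2 isoforms and a mean of at least 10 FPKM, 46.9% had an isoform whose deposited bounds did not overlap between some files. Among the 65 of these whose isoforms share their ends and differ by at most 3 bases in length, the share was 75.4%, and among 3921 genes with 1 isoform it was 2.04%. The bounds of the shorter form overlapped between all files, at 129.4 to 155.8 FPKM in replicate 1 and 93.4 to 134.5 FPKM in replicate 3. The order of the Aqp8 isoforms was the same in all 3 files, and the share assigned to each differed in replicate 3. Whether the isoform ratio differed in the RNA was not tested.

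**Figure D2:**
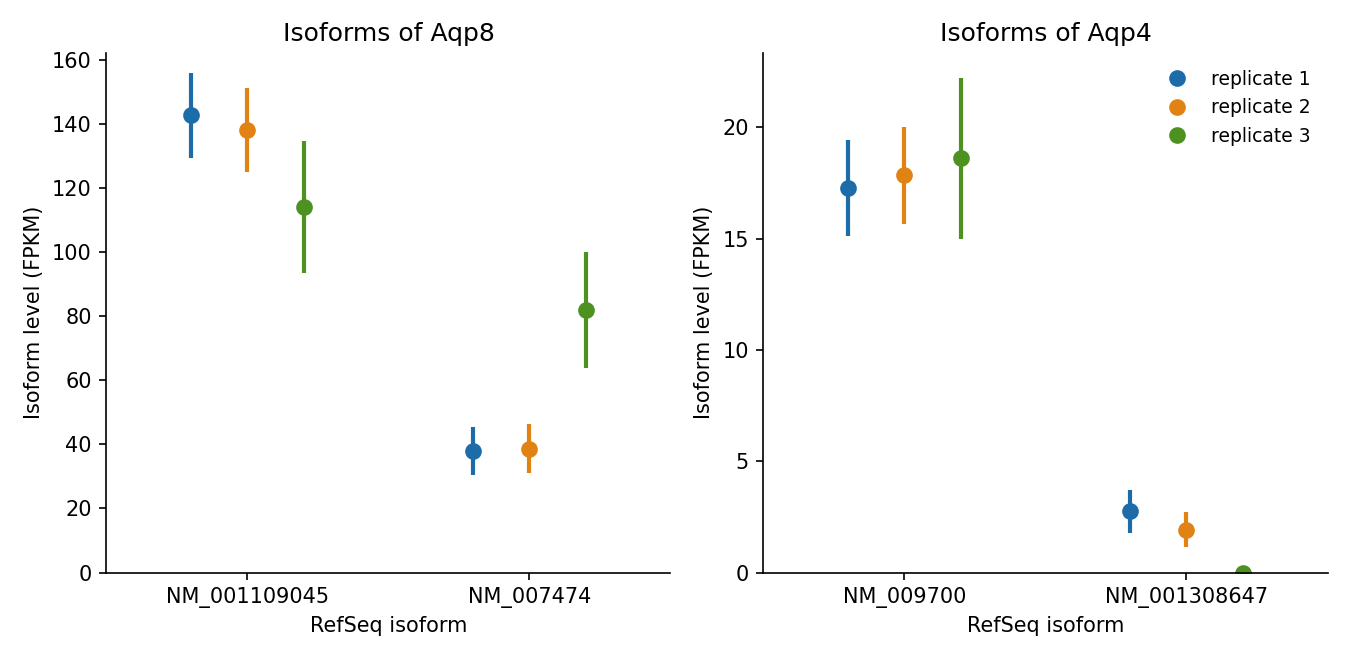
Level in FPKM of both Aqp8 isoforms (left) and of the leading pair of Aqp4 isoforms (right), 1 point per replicate with the authors' deposited 95% bounds as a line. NM_001109045 lies above NM_007474 in each replicate, NM_007474 is higher in replicate 3 than in the other files, and NM_001308647 is at 0 there.

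Aqp4, the water channel of astrocyte end-feet in the brain and of basolateral membranes in several epithelia, had 20.1, 20.1 and 18.6 FPKM in replicates 1, 2 and 3. It averaged 19.6 ± 0.848 FPKM on about 867 fragments (95% interval 18.6 to 21.3 FPKM), with an adjusted p of 0.998 between files. The gene lies on the minus strand of chromosome 18, 15389394 to 15410982, and ranked 3317th, above 86.4% of symbols. Of its 8 isoforms, NM_009700, which begins at 15403684, held 86.2%, 88.6% and 99.9% of the gene in replicates 1, 2 and 3. NM_001308647, which begins 668 bases further along the transcribed strand at 15403016, had 2.75 and 1.93 FPKM in replicates 1 and 2 and was at 0 in replicate 3, where its deposited upper bound was 0.310 FPKM. The other 6 isoforms all begin at 15410982 and together reached 0.0286, 0.367 and 0.0161 FPKM. Nearly all of the Aqp4 FPKM was thus assigned to isoforms that begin at the inner sites. An antisense gene, AC133525.2, overlaps Aqp4, and since the sources used here do not say whether counting used strand, reads of the pair cannot be told apart.

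Aqp1, the channel of capillary endothelium and red blood cells, had 17.8, 16.1 and 19.2 FPKM in replicates 1, 2 and 3, and averaged 17.7 ± 1.56 FPKM on about 388 fragments (95% interval 15.6 to 19.1 FPKM). Its adjusted p between files was 0.998 in the test over genes with 1 isoform. It lies on chromosome 6, 55336299 to 55348555, and ranked 3640th, above 85.0% of symbols. Aqp4 was higher than Aqp1 in replicates 1 and 2 and lower in replicate 3, and both their ranges over files and their intervals overlapped, so the pair cannot be ordered from these data. In a bulk sample, fewer cells of a type and less RNA per cell cannot be told apart, which holds for each gene named here. The 7 blood endothelium markers all reached 1 FPKM in every file, with Plvap, a protein of endothelial diaphragms, at 16.1 ± 1.57 FPKM and Pecam1, an endothelial adhesion molecule, at 10.7 ± 0.193 FPKM, and their summed level was 41.4 to 42.3 FPKM. Of 8 erythroid markers with values, 4 reached 1 FPKM in every file, all of them globin genes, with a summed list level of 102 to 126 FPKM. Slc4a1, the red cell anion exchanger, stood at 0.0402 ± 0.0348 FPKM. The part of either cell type in the Aqp1 level was not tested.

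Aqp11, an unorthodox member that sits in the endoplasmic reticulum and whose loss in mice causes cystic kidneys, had 8.90, 7.99 and 9.02 FPKM in replicates 1, 2 and 3, and averaged 8.64 ± 0.562 FPKM. It rested on about 86.1 fragments (95% interval 6.82 to 10.5 FPKM) and had an adjusted p of 0.998 between files. It lies on the minus strand of chromosome 7, 97726379 to 97738247, apart from Aqp8 on the same chromosome, and ranked 6290th, above 74.2% of symbols. Aqp11 lay below Aqp1 by a factor of 2.05 in the means, with no overlap of ranges or intervals. It was in turn 28.3 times the mean of Aqp7, the next gene down, again with no overlap.

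Aqp7, the glycerol channel of adipocytes, had 0.672 and 0.243 FPKM in replicates 1 and 2 and was listed at 0 in replicate 3. Over the 3 files it rested on about 7.37 fragments (95% interval 0.162 to 0.795 FPKM). Its level is uncertain on so few fragments. A stretch of up to 136 bases of its GENCODE M21 transcripts also matches transcripts of Gm48141 and Mapk12 at 97% identity or more. The part of such shared reads in the Aqp7 level was not tested. Of the adipocyte markers, Adipoq, the hormone that defines the cell type, averaged 0.416 ± 0.382 FPKM, and Lep was listed at 0, while the fatty acid binding protein Fabp4, which endothelium also makes, stood at 25.1 ± 7.56 FPKM. Over the adipocyte list, 3 of 7 genes reached 1 FPKM in every file, and the summed level was 24.4 to 38.2 FPKM.

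Aqp9, the glycerol channel of hepatocytes and of some leukocytes, had 0.213, 0.319 and 0.324 FPKM in replicates 1, 2 and 3, or about 2, 3 and 1 fragments, and its interval was 0.101 to 0.597 FPKM. The gene lies on chromosome 9, 71110659 to 71163289. Its FPKM was divided evenly between NM_022026 and NM_001271843, which begin at different first exons, with 50.0% each in replicate 1, and the non-coding form NR_073483 held under 0.1% in each file. With so few fragments, the share of each start was not measurable. A pseudogene and an antisense gene on the other strand overlap Aqp9. Aqp5, the channel of salivary, lacrimal and lung secretion, was listed at 0 in replicates 1 and 3 and at 0.381 FPKM in replicate 2, which is about 2 fragments, with an interval of 0.0198 to 0.593 FPKM. Of 4 lung and salivary genes, 2 reached 1 FPKM in every file, the airway secretory gene Scgb1a1 at 50.3 FPKM and the surfactant gene Sftpc at 7.74 FPKM, and their part in the Aqp5 level was not tested. Aqp7, Aqp9 and Aqp5 overlapped one another in range and interval, and their order cannot be given.

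The liver is a site of Aqp8 and Aqp9 in mice, so the hepatocyte genes bear on how these levels are read. Alb, the plasma albumin, stood at 129 ± 5.35 FPKM and Ttr, the thyroxine carrier, at 60.7 ± 7.73 FPKM, while Cps1, the first enzyme of the urea cycle, stood at 4.75 ± 1.18 FPKM. The summed level of the 7 genes was 274 to 296 FPKM. The pancreas, another site of Aqp8, was covered by 6 acinar genes, of which 5 were listed at 0 in every file and Cela1, an elastase, stood at 175 ± 6.57 FPKM. The part of foreign tissue in the Aqp8 and Aqp9 levels was not tested. Of 4 neutrophil genes, S100a8, S100a9 and Retnlg were listed at 0 in every file, with limits of 1.49, 0.953 and 0.767 FPKM, all above the level of Aqp9. Csf3r, the receptor of granulocyte colony-stimulating factor, averaged 0.416 FPKM. The part of neutrophils in the Aqp9 level was not tested.

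Aqp2, Aqp3 and Aqp6 were listed at 0 in every file, with no fragment recovered. For each, the level that 3 fragments over the 3 files together would give sets an upper limit, which covers counting error only. Aqp2, the vasopressin-regulated channel of the kidney collecting duct, had a limit of 0.272 FPKM (chromosome 15, 99579056 to 99584545). Aqp6, a channel of intracellular vesicles in kidney intercalated cells, had a limit of 0.180 FPKM (chromosome 15, 99601400 to 99605477). Aqp3, a basolateral aquaglyceroporin of skin, kidney and colonic epithelium, had a limit of 0.213 FPKM (chromosome 4, 41092724 to 41098183). The mean of Aqp8 was 866 times the limit of Aqp3, a ratio that leaves out the counting error of Aqp8. Of 60 widely expressed genes looked up, 58 were in the files under those symbols, none of these was at 0 in any file, and the lowest of their means was 6.21 FPKM. Of the remaining family genes in the files, Aqp12, a channel of pancreatic acinar cells, and Mip, the channel of the eye lens, were also listed at 0, with limits of 0.370 and 0.172 FPKM.

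**Figure D3:**
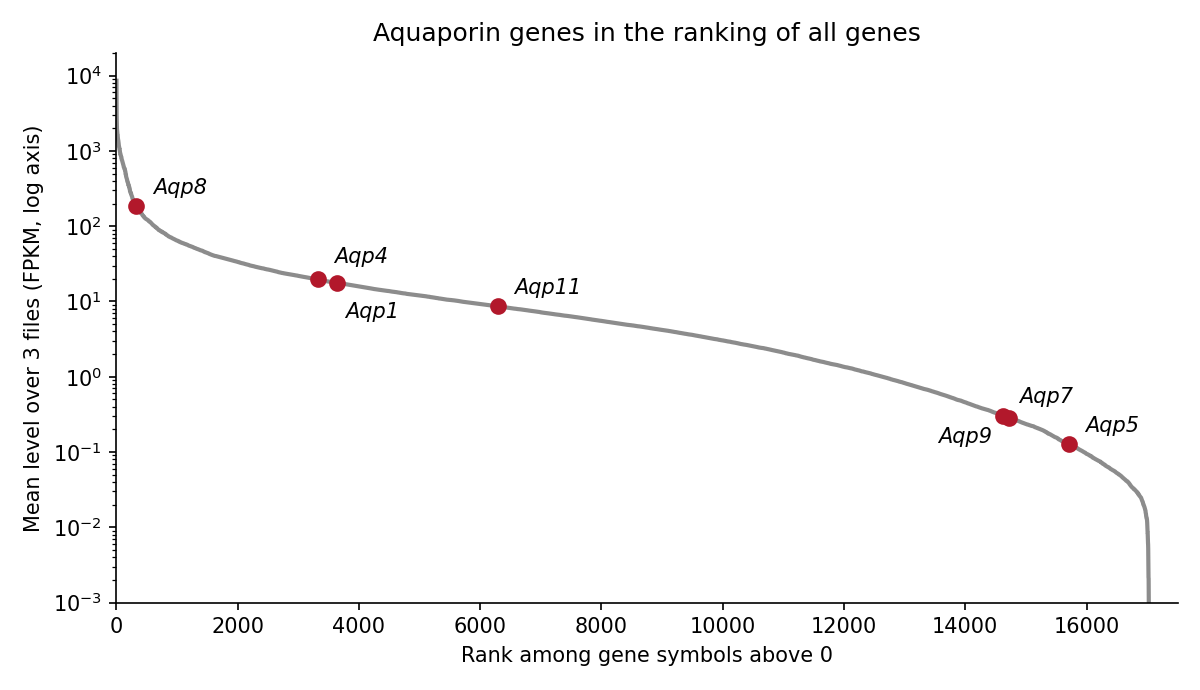
Mean level over the 3 files in FPKM on a log axis against the rank of each gene symbol above 0 (grey line), with the 7 aquaporin genes above 0 marked in red. Aqp8 ranks 329th, Aqp4, Aqp1 and Aqp11 rank from 3317th to 6290th, and Aqp7, Aqp9 and Aqp5 rank from 14616th to 15706th.

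Of the 6 genes under 1 FPKM in every file, 5 lie in 2 groups in the genome, and Aqp9 lies alone on chromosome 9. Aqp2, Aqp5 and Aqp6 lie side by side within 26422 bases of chromosome 15, with no other listed gene between them, and all 3 were at 0 in replicates 1 and 3. Their neighbours on either side were Faim2, an inhibitor of Fas-driven cell death in neurons, at 0.983 ± 0.228 FPKM, and Racgap1, a protein of the cytokinetic spindle, at 10.6 ± 0.642 FPKM. Aqp3 and Aqp7 lie within 65110 bases of chromosome 4, also with no other listed gene between them, next to Nfx1 at 14.0 ± 0.382 FPKM and Nol6, a nucleolar protein, at 4.63 ± 0.641 FPKM. The cluster genes stood below the genes on their flanks, and Faim2 was itself under 1 FPKM on average. Beside Aqp8, Lcmt1, a protein methyltransferase, stood at 10.6 ± 3.70 FPKM before it and Zkscan2 at 0.0599 ± 0.0599 FPKM after it.

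Water moves with salt, and the aquaporins were set beside 16 genes of ion transport, 15 of which reached 1 FPKM in each file. Aqp8 lay below 3 of the 16 and above 13 in every file. Genes above it included Atp1b1, a sodium pump subunit, at 742 ± 1.01 FPKM and the chloride-bicarbonate exchanger Slc26a3 at 215 ± 1.56 FPKM. Atp12a, the colonic proton-potassium pump, followed Aqp8 at 72.6 ± 4.09 FPKM. Aqp4 and Aqp1 stood below 10 of the 16 and above Cftr, the chloride channel of fluid secretion, at 14.8 ± 0.385 FPKM. Aqp11 stood above only Scnn1g and Scnn1b, subunits of the epithelial sodium channel, and Slc9a3, the apical sodium-proton exchanger at 0.227 ± 0.197 FPKM.

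**Figure D4:**
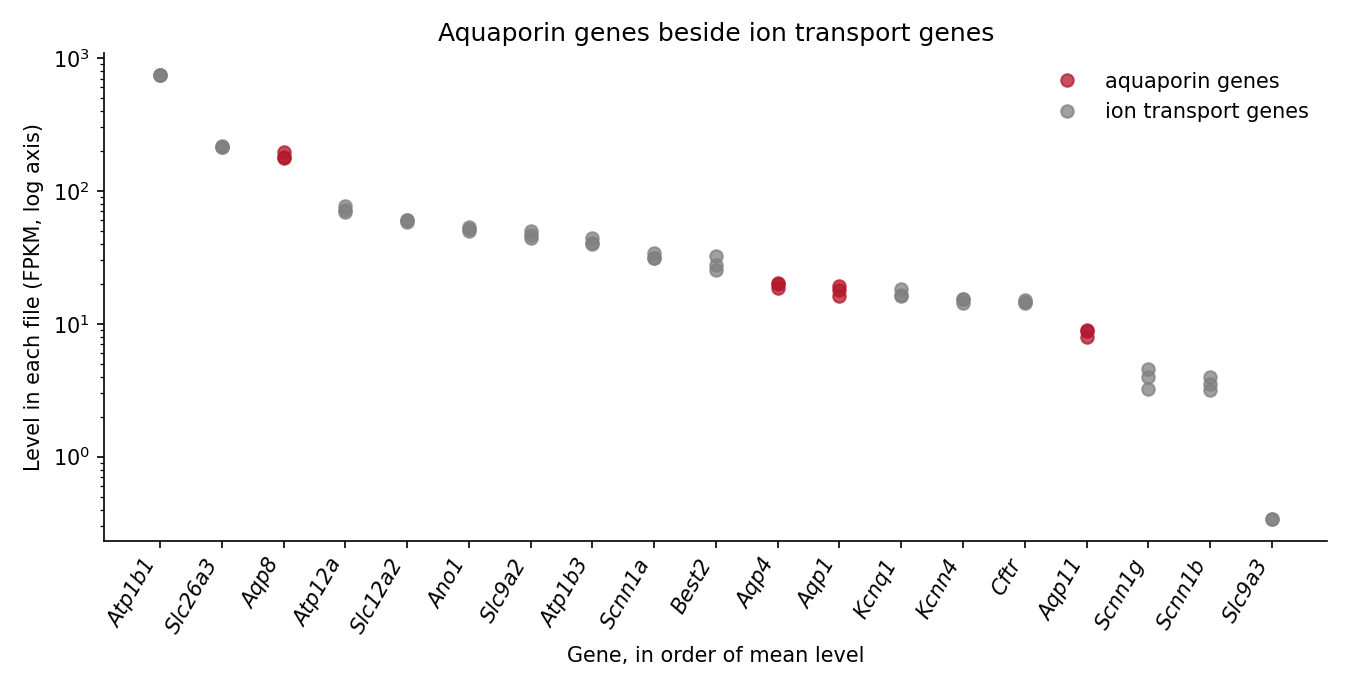
Level in each file in FPKM on a log axis for the 4 aquaporin genes at or above 1 FPKM (red) and 15 of the ion transport genes (grey), ordered by mean, with 3 points per gene except where a file is at 0. Aqp8 lies just below Slc26a3 and above Atp12a.

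Hormone and cyclic AMP signals move aquaporins to the membrane and were read from 11 genes, of which 9 reached 1 FPKM in every file. Avpr2, the vasopressin receptor that drives Aqp2 in the kidney, had no fragment (limit 0.335 FPKM), and Avpr1a, the vascular vasopressin receptor, stood at 1.17 ± 0.114 FPKM. Vipr1, the receptor of vasoactive intestinal peptide in colonic epithelium, stood at 38.3 ± 2.53 FPKM. The aldosterone pathway genes Hsd11b2, which inactivates glucocorticoids, at 187 ± 12.0 FPKM and the kinase Sgk1 at 45.1 ± 5.82 FPKM were the highest of the list.

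Partners of the single channels were also present. Of 5 genes of the complex that anchors Aqp4 in the brain, 4 reached 1 FPKM in every file, led by dystroglycan (Dag1) at 25.9 ± 1.39 FPKM. All 7 glycerol-handling genes with values reached 1 FPKM in every file, with the lipase Pnpla2 at 35.0 ± 2.02 FPKM and glycerol kinase, listed as Gyk, at 23.9 FPKM, beside the 3 aquaglyceroporins that each stayed under 1 FPKM. All 8 genes of peroxide handling did so too, among them the epithelial oxidases Nox1 at 12.4 ± 0.579 FPKM and Duox2 at 11.8 ± 1.16 FPKM. Of the urea carriers, Slc14a2 was listed at 0 and Slc14a1 stood at 0.207 ± 0.238 FPKM. Counts of this kind are read against the 48.5% of all symbols that reached 1 FPKM in every file.

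Markers of other cells that could hold Aqp4 were looked up as well. Of 5 enteric glia markers, 4 reached 1 FPKM in every file, with Gfap, a glial filament protein, at 2.92 ± 0.478 FPKM and Sox10, a glial transcription factor, at 1.25 ± 0.622 FPKM, and the summed level was 41.1 to 48.9 FPKM. Of 5 skeletal muscle markers, 2 reached 1 FPKM in every file, where 48.5% of all symbols did. These were Ckm at 9.40 ± 2.59 FPKM and Acta1 at 4.67 ± 1.57 FPKM. Tnnt3 was at 0 in replicates 1 and 3 and averaged 0.418 FPKM. The fast myosins Myh1 and Myh4 were listed at 0, and the summed level of the list was 11.3 to 17.9 FPKM. The part of these cells in the Aqp4 level was not tested. The 6 kidney genes of the lists, mostly of nephron segments other than the collecting duct, stayed under 1 FPKM, with Nphs1 at 0.128 FPKM, Slc34a1 at 0.121 FPKM and the other 4 listed at 0.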

How the data were processed

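The authors deposited 1 isoform table per sample, with FPKM and its lower and upper 95% bounds, per the file headers. Coverage, a signal, was deposited too and was not used. The submitters' processing notes list Cufflinks 2.2.1, TopHat2 2.1.1 and Bowtie2 2.3.4.3. They name GRCm39, but all 10 genes lay within 1000 bases of RefSeq GRCm38.p6 positions at 1 end or both, so positions are given as GRCm38.

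FPKM were added over the isoforms of each symbol. The upper bound less the FPKM was read as 2 standard errors, which gives fragments. In single-isoform genes over 800 bases and up to 30 fragments, 64.1% to 64.3% lay within 0.01 of a whole number, so fragments were not rounded. For genes with several isoforms they came from FPKM, depth (a Theil-Sen slope) and length less 164 bases. Intervals are exact Poisson. The test between files was checked on simulated data, with changes set in replicate 1. It recovered 72% of 2-fold and 42% of smaller changes and called 5 unchanged genes. With no change set, it called 0 of 8760 genes. Changes in replicate 3, the shallowest file, were not simulated. A high adjusted p between files therefore does not show that the files are equal. Copies were sought with BLAST+ 2.17.0 in GENCODE M21 transcripts, as matches of at least 100 bases at 97% identity. The software was Python 3.11.15 with SciPy 1.17.1, pandas 2.3.3, numpy 2.4.6 and matplotlib 3.10.9.

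The members and gene lists were chosen with earlier results of these data known. All members are named, with the 4 highest genes of a list and up to 3 under 1 FPKM in every file as the rule for others. Some defining markers and partners outside that rule were chosen after their values were seen, and so were the isoform comparison over all genes and the widely expressed genes. Alternatives changed the scale, the isoform sum, the threshold, the genes tested and the replicates used. Most genes of the lists are given in counts only, and some results are not reported here.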

Additional observations from a re-analysis of the deposited data

How the results depend on the processing

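Of 145 alternative values, 119 stayed within the SD over files or, for counts, near the count given. Many of these could not do otherwise, so the count is no measure of stability. Leaving out 1 replicate cannot move a mean level or isoform share by more than that SD. Genes at 0 stay at 0, and genes with 1 isoform keep their level and limit when the isoform used is changed. Rescaling to a common sum (TPM) gave 432 for Aqp8, 45.9 for Aqp4, 41.4 for Aqp1, 20.2 for Aqp11, 0.715 for Aqp7 and 0.668 for Aqp9, and kept the order. With only the highest isoform of each gene, the values were 132 FPKM for Aqp8, 17.9 for Aqp4 and 0.143 for Aqp9, and the Aqp8 share was 74.6%. Aqp8 lay above 98.1% of genes above 0 and 97.4% of genes at or above 1 FPKM. Counting genes above 0 in any file raised the 4 genes to 7, and a threshold of 0.1 FPKM in every file gave 5. Testing all isoform numbers between files gave 20 differing genes of 12629 (0.158%) in place of 5, and single-isoform genes averaging 5 FPKM or more gave 6. Without 1 replicate at a time, from 4 to 7 of the 7 genes above 0 kept their place, and every change was among Aqp7, Aqp9 and Aqp5. Without replicate 1, Aqp7 averaged 0.121 FPKM, and without replicate 2, Aqp5 was at 0. The depth of 8.81e+06 fragments limits the lower tier. Upper bounds of genes at 0 are themselves 0 and gave no other limit. No paired analysis was possible because the samples form 1 group.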
